A study of Mus musculus with 4 samples.

Results

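The regions described here lie in 4 genes with parent-of-origin expression: the small nucleolar RNA gene SNORD116, the antisense RNA gene Airn, the receptor gene Igf2r and the adaptor gene Grb10. They are the rows of the deposited region table whose gene label is one of these names, 7 of 10000 regions in all. SNORD116 has 3 regions, Grb10 has 2, and Airn and Igf2r have 1 each. The genes were selected on their deposited signals in this table, with earlier results in view, so their levels and ratios are given as a description, and no test is used to support them.

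The table comes from genomic DNA of 4 CD4+ T cell populations isolated from female Balb/c mice, from spleen and lymph node, with 1 library for each. Th17 cells had low CD45RB and secreted IL-17A without interferon gamma, Treg cells had very high CD25, Th1 cells, also low in CD45RB, secreted interferon gamma without IL-17A, and naive cells had high CD45RB. Every population was exposed for 3 h to PMA (10 ng/ml) plus ionomycin (500 ng/ml), Treg cells after their sort and the other populations before it, so that the sequence of handling differs between Treg and the rest. The labels do not state how many animals contributed to each library, and the identity of each population rests on the sort, since DNA capture reads no marker expression.

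Imprinted genes carry a methylation mark set in the egg or the sperm, so that a control element is methylated on 1 parental chromosome and not on the other. Igf2r encodes the cation-independent mannose 6-phosphate receptor, which carries IGF2 to the lysosome and is expressed in most mouse tissues from the maternal chromosome. Airn is transcribed from the paternal chromosome, antisense to Igf2r, from a start inside an Igf2r intron, and silences Igf2r there. Grb10 encodes an adaptor that binds the insulin and IGF1 receptors and restrains growth, with maternal expression in most tissues and paternal expression in neurons. SNORD116 is a C/D box small nucleolar RNA made from many tandem copies on the paternal chromosome, in the segment whose loss in humans causes Prader-Willi syndrome.

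Methylated fragments were captured with a methyl-CpG-binding domain protein and sequenced, so reads in a region depend on its methylation, its CpG content and its length. The deposited values are scaled reads. One read was worth 0.352 in the Treg library, 1.68 in the Th1 library and 0.996 in the naive library, and reads were recovered by division. The table held 74571 Treg, 19548 Th1 and 34277 naive reads, with medians of 7, 2 and 3 reads per region in the same order. Intervals are exact at 95% and cover counting error only. No difference has a replicate check.

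All 7 regions were listed at 0 in the Th17 library, like the other regions of the table, so the zero does not set these genes apart. The depth of the Th17 library is not known, and no fold against it is given. A count of 0 allows up to 3 reads, which would be a value of 1.06 at the depth of the Treg library, 5.04 at that of Th1 and 2.99 at that of naive. The mean of the Treg, Th1 and naive values lay above this limit in 7 of the 7 regions at the Treg depth, in 1 at the Th1 depth and in 6 at the naive depth. The same held for 99.8%, 2.28% and 53.3% of all regions. The 1 region above the limit at the Th1 depth was the second of SNORD116, and the 1 below it at the naive depth was the second of Grb10.

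The 3 SNORD116 regions, numbered here by position on chromosome 7 of mouse build mm9, were all assigned to promoters, each of another Ensembl gene with the same label. Region 1 (66933187 to 66933360, ENSMUSG00000075840) is 174 bp long, region 2 (67004473 to 67004652, ENSMUSG00000075936) 180 bp and region 3 (67036342 to 67036648, ENSMUSG00000075839) 307 bp. The table lists a distance of -1823 for region 1, -370 for region 2 and -1923 for region 3. Its unit and zero point are not stated. It ranges from -2228 to 644 among the 477 promoter regions and is 0 in every intron and exon region, so region 2 is listed nearest to that point of the 3. Promoter regions make up 4.77% of the table.

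SNORD116 region 2 held 6 Treg reads, 3 Th1 reads and 18 naive reads. These are values of 2.11 in Treg (interval 0.776 to 4.60), 5.04 in Th1 (1.04 to 14.7) and 17.9 in naive cells (10.6 to 28.3). The naive library is high and the Treg interval lies wholly below the naive one, while the Th1 interval overlaps both. No other region of the table had as many naive reads; the next highest had 12. Its Treg reads were exceeded in 6081 regions and its Th1 reads in 1297. The naive library gave 71.5% of the summed value of the 3 libraries there, against 36.6% over the table.

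SNORD116 region 1 held 6 Treg, 2 Th1 and 6 naive reads, with values of 2.11 (interval 0.776 to 4.60), 3.36 (0.407 to 12.1) and 5.98 (2.19 to 13). Its naive reads were exceeded in 281 regions, and its 3 intervals overlap. Region 3 held 3 reads in each of the Treg, Th1 and naive libraries, which are values of 1.06 (0.218 to 3.09), 5.04 (1.04 to 14.7) and 2.99 (0.616 to 8.73). The naive excess of region 2 was thus not seen in region 3, where the Th1 value was the highest and all intervals overlap. Over the 3 regions the mean value was 1.76 in Treg (interval 0.986 to 2.91), 4.48 in Th1 (1.94 to 8.83) and 8.97 in naive cells (5.91 to 13). Without region 2 the means of the other pair were 1.59 in Treg (0.725 to 3.01), 4.20 in Th1 (1.36 to 9.81) and 4.48 in naive cells (2.05 to 8.51). The naive mean was then still the highest of the 3, close to the Th1 mean, and all 3 intervals overlap.

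**Figure D1:**
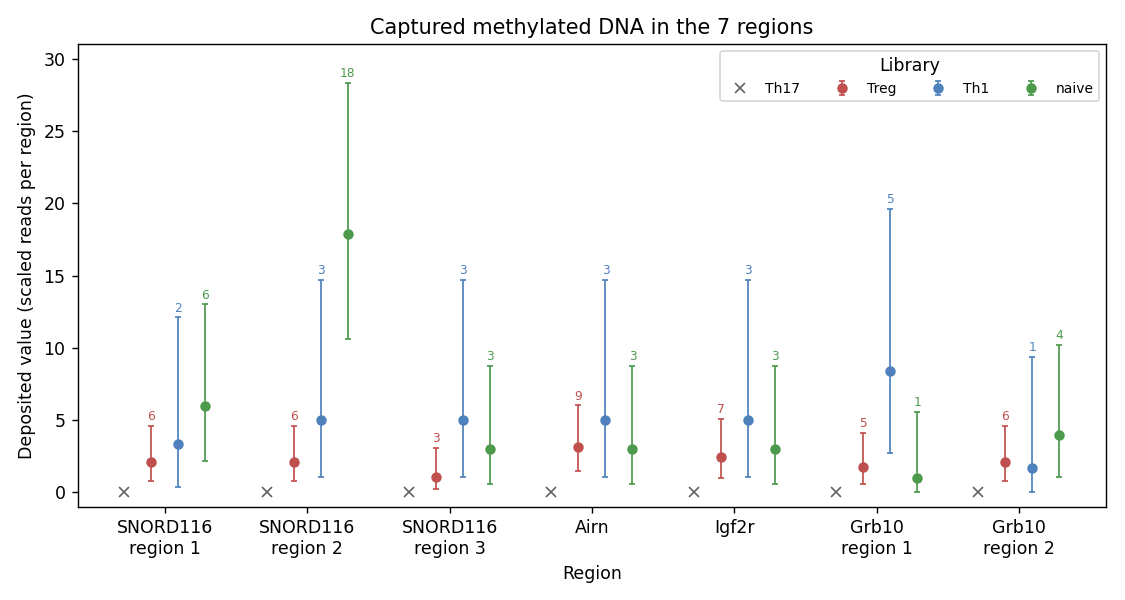
Deposited value (scaled reads per region) of the 7 regions in the Th17, Treg, Th1 and naive libraries, left to right within each region; bars are exact 95% Poisson intervals and the digits above them are the reads. SNORD116 region 2 stands at 17.9 in the naive library with 18 reads, and all Th17 values are 0.

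The origin of the SNORD116 reads is uncertain, because the gene is repeated. The RefSeq annotation of build GRCm38.p6 lists 17 Snord116 genes on chromosome 7, of 90 to 94 bp, with 1 other gene between the first and the last. A lookup of the Ensembl identifiers of all the regions described here, in the whole of that annotation, gave no match. It failed for Igf2r and Grb10 too, which the annotation holds by name, so it says nothing about SNORD116. Which copy each SNORD116 region belongs to is not known. The treatment of reads with several matches is not known here, and a read from 1 copy may have been counted at another. The table numbers its regions along each chromosome, and its numbers are sparse in this stretch. Between regions 1 and 2 there were 17.8 kb per region number and between regions 2 and 3 there were 7.97 kb, against a median of 1.11 kb between neighbouring regions of the table. Of 9980 neighbouring pairs, 0.0601% and 0.281% were as sparse as these 2 pairs. The SNORD116 regions lie only a few numbers apart, while other pairs mostly average over many more numbers. These shares therefore do not measure how unusual the stretch is. For comparison, the spacing was 1.66 kb between the Grb10 regions and 1.13 kb between Igf2r and Airn. Of the 9 region numbers from SNORD116 region 1 to region 3, over 103 kb, 3 are in the table, or 33.3%. The whole table holds 0.674% of the numbers it spans, but this short stretch begins and ends at a row, which raises its share. What a number without a row stands for is not given, and whether repeats play a part in the SNORD116 values was not tested.

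Other small RNA labels with repeated genes are given as a description only. Their naive reads had to be fewer than at SNORD116 region 2, which holds the most in the table. Besides SNORD116, 3 labels of the table stood for at least 3 Ensembl genes: the spliceosomal RNA U6, the transcription regulator 7SK and the small nucleolar RNA SNORA17. The highest naive count was 6 in the 10 U6 regions, 4 in the 6 regions of 7SK and 6 in the 11 SNORA17 regions. All 17 regions of other small nucleolar RNA labels had between 1 and 13 Treg reads, 0 and 3 Th1 reads and 2 and 6 naive reads. By mean value the SNORD116 region 2 came first among these labels with 8.36, followed by SNORD115 with 3.96 and SNORD113 with 3.84. SNORD115, the neighbouring tandem array of the same imprinted segment, had 1 region (chromosome 7, 66710012 to 66710380) with 10 Treg, 2 Th1 and 5 naive reads. SNORD113, which comes from the imprinted Dlk1-Meg3 segment, had 1 region (chromosome 12, 110892500 to 110892710) with 9, 2 and 5 reads in the same libraries. The SNORA17 region next in height (chromosome 6, 56550408 to 56550829) had 8, 2 and 5 reads. In each of these 3 regions the naive reads were fewer than at SNORD116 region 2, as in every other region of the table. Their Treg reads were more numerous, as in 6081 of the 10000 regions. Other small nucleolar RNA regions went down to 1 Treg read.

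Igf2r and Airn lie in 1 imprinted cluster on chromosome 17. The Igf2r region (12919200 to 12919377, 178 bp, ENSMUSG00000023830) was assigned to exon 9, and the Airn region (13009860 to 13010164, 305 bp, ENSMUSG00000078247) to an intron. The Igf2r region held 7 Treg, 3 Th1 and 3 naive reads, with values of 2.47 (interval 0.992 to 5.08), 5.04 (1.04 to 14.7) and 2.99 (0.616 to 8.73). The Airn region held 9 Treg, 3 Th1 and 3 naive reads, with values of 3.17 (1.45 to 6.02), 5.04 (1.04 to 14.7) and 2.99 (0.616 to 8.73). In both regions the Th1 value is the highest and rests on 3 reads, and all intervals overlap. The 2 regions span 91.0 kb and are the only rows among 81 region numbers. They share the same Th1 and naive reads and differ by 2 Treg reads.

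Neither region was assigned to a promoter, and it is at the promoters that the allele-specific marks of this cluster are known. The RefSeq promoter windows, from 250 bases before to 50 after each gene start in build GRCm38.p6, are shown because capture depends on CpG sites, which are printed in capitals. They differ from each other in that respect, and they cannot be placed against the mm9 regions without that genome.
Igf2r, chr17:12769657-12769956, minus strand: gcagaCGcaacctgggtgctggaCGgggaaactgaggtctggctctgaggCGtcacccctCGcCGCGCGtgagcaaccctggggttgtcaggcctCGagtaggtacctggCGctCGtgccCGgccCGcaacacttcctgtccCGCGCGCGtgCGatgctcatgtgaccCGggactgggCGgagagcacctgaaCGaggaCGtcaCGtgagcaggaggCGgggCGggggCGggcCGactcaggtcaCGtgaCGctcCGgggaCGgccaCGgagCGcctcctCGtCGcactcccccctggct
Airn, chr17:12741061-12741360, plus strand: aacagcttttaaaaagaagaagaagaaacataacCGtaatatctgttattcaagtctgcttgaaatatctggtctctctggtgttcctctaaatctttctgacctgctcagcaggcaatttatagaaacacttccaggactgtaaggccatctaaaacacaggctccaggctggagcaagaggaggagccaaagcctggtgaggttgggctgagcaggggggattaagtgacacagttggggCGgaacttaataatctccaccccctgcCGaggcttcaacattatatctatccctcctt
The Igf2r window holds 34 CpG sites and 7.73% of 32851 promoter windows hold at least as many. The Airn window holds 3, and 76.7% hold at least as many, where the median window has 7. Each window is 300 bases long and lies mostly before the gene start. CpG sites further away are not counted, so these counts do not describe a whole promoter or its control element. CpG is the same on both strands and cannot overlap itself.

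The neighbouring gene Slc22a3, an organic cation transporter gene that Airn silences in the placenta, had an intronic region (12670346 to 12670631) with 11 Treg, 5 Th1 and 5 naive reads. These few regions do not cover the whole cluster, and no common direction can be read from them.

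Grb10 lies on chromosome 11 and had 2 intronic regions under 1 identifier, ENSMUSG00000020176. Region 1 (11862678 to 11862899, 222 bp) held 5 Treg, 5 Th1 and 1 naive read, with values of 1.76 (interval 0.572 to 4.11), 8.40 (2.73 to 19.6) and 0.996 (0.0252 to 5.55). Region 2 (11914262 to 11914555, 294 bp) held 6 Treg, 1 Th1 and 4 naive reads, with values of 2.11 (0.776 to 4.60), 1.68 (0.0426 to 9.37) and 3.98 (1.09 to 10.2). Th1 is high in region 1 and low in region 2, while naive lies the other way round, and within each region the 3 intervals overlap. The Th1 reads of region 1 were exceeded in 98 regions of the table and its naive reads in 8961. Summed over both regions, the mean value was 1.94 in Treg (0.968 to 3.47), 5.04 in Th1 (1.85 to 11.0) and 2.49 in naive cells (0.809 to 5.81). The neighbouring gene Ddc, which encodes aromatic L-amino acid decarboxylase, had an intronic region (11742534 to 11742828) with 12 Treg, 2 Th1 and 1 naive read.

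Grb10 has a CpG-dense promoter, and neither of its regions was assigned to a promoter. Its first RefSeq window holds 45 CpG sites, a number that 1.93% of promoter windows reach, and is shown for that density, again in build GRCm38.p6 with CpG sites in capitals.
Grb10, chr11:12037371-12037670, minus strand: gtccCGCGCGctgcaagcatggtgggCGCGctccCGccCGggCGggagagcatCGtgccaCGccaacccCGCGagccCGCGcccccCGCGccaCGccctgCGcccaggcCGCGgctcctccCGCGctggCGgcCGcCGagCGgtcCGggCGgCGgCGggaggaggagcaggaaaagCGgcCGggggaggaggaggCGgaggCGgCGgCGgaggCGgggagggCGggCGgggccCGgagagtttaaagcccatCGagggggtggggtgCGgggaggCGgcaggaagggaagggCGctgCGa
A second Grb10 window, from another start, holds 9 CpG sites, and 45.8% of windows hold at least as many.

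**Figure D2:**
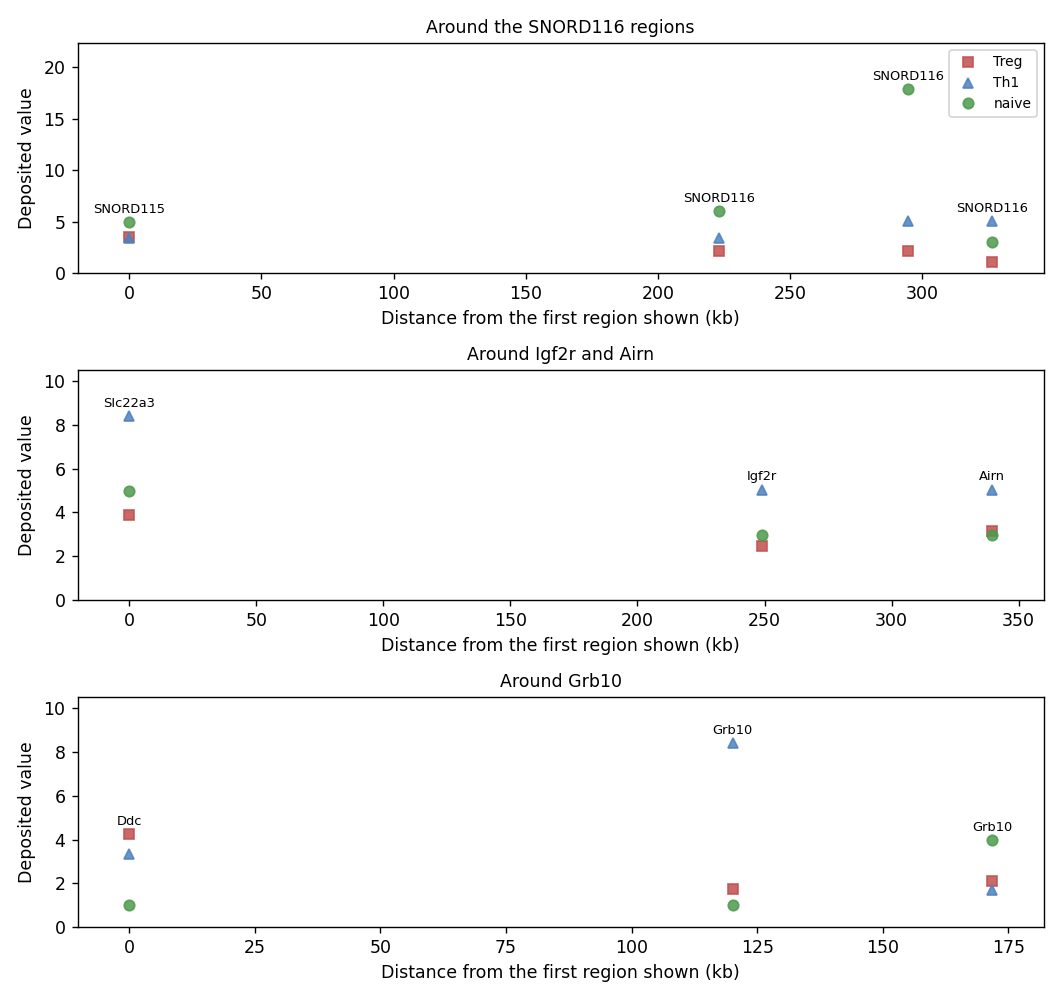
Deposited values of the regions described in the 3 imprinted segments in the Treg (squares), Th1 (triangles) and naive (circles) libraries, against distance in kb from the first region shown. The naive value of 17.9 at SNORD116 region 2 stands above its neighbours, and the Th1 value of 8.40 is the highest at both Slc22a3 and Grb10 region 1.

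Levels were compared between the regions per 100 bp of region. In the Treg library the order was Igf2r with 1.39, SNORD116 region 1 with 1.22, SNORD116 region 2 with 1.17, Airn with 1.04, Grb10 region 1 with 0.794, Grb10 region 2 with 0.719 and SNORD116 region 3 with 0.344. In the Th1 library it was Grb10 region 1 with 3.79, Igf2r with 2.83, SNORD116 region 2 with 2.80, SNORD116 region 1 with 1.93, Airn with 1.65, SNORD116 region 3 with 1.64 and Grb10 region 2 with 0.572. In the naive library it was SNORD116 region 2 with 9.96, SNORD116 region 1 with 3.43, Igf2r with 1.68, Grb10 region 2 with 1.36, Airn with 0.980, SNORD116 region 3 with 0.973 and Grb10 region 1 with 0.449. Every pair of neighbours in these 3 orders had overlapping counting intervals. In the naive library the interval of SNORD116 region 2, 5.90 to 15.7, lay above those of all regions but SNORD116 region 1, which reached 7.48. By this measure Igf2r was among the first 3 in all 3 libraries, and SNORD116 region 2 likewise, whereas the Grb10 regions changed places. The place of Igf2r above Airn rests on length, 178 bp against 305 bp. Their Th1 and naive reads were equal, and Airn had more Treg reads. By mean value per 100 bp no region of the table exceeded SNORD116 region 2, 157 exceeded SNORD116 region 1 and 468 exceeded Igf2r. Without division by length, 1, 1771 and 2816 regions exceeded them in the same order.

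**Figure D3:**
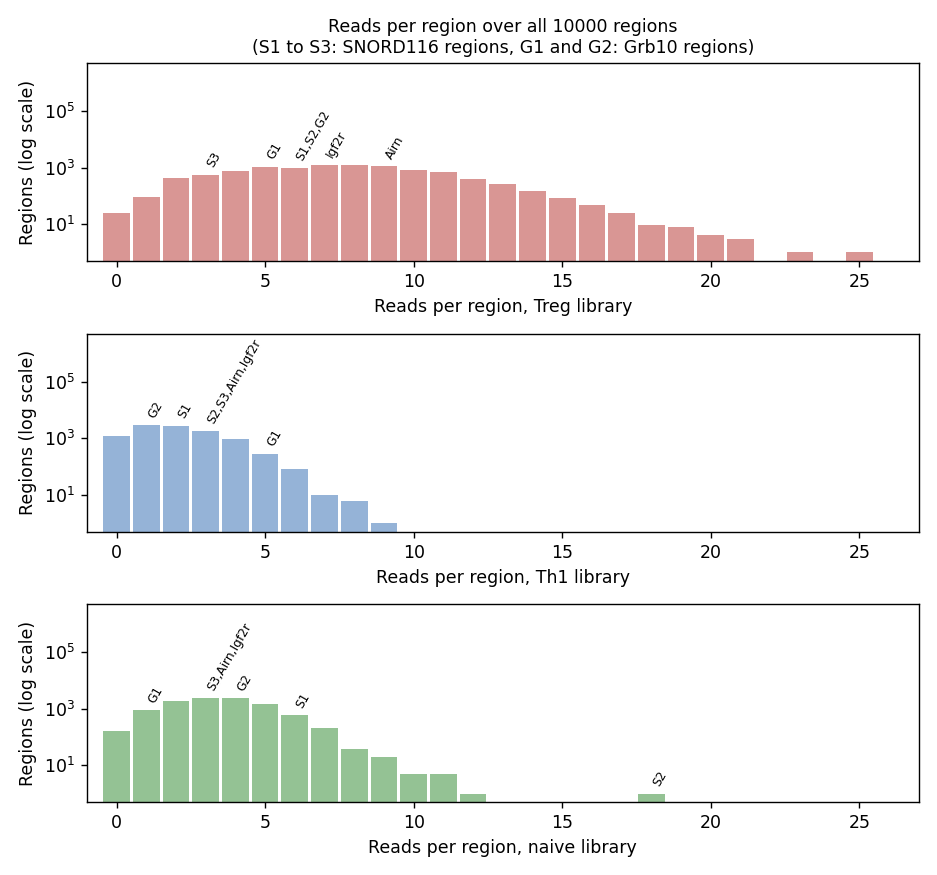
Number of regions (log scale) at each number of reads per region in the Treg, Th1 and naive libraries over all 10000 regions, with the 7 regions marked above their bars. SNORD116 region 2 (S2) is the only region with 18 naive reads, and the other marks lie within the range of the remaining regions.

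Treg was then set against naive. A region was counted as past the fold when its log2 ratio of the 2 values reached 1 in either direction after 0.5 was added to each as a pseudocount. The 3 SNORD116 regions were lower in Treg by this rule and 0 of the 7 were higher. Among all regions 22.2% were lower and 8.33% higher, a split of 833 higher and 2217 lower. Scaling the libraries to the same sum of reads over the table (equal table totals) made it 1557 and 1541. Such sums cover the listed regions only and are not library depths. The log2 ratio at SNORD116 region 2 was -2.82, a ratio of values of 0.118 (interval 0.0383 to 0.310), and 43 regions had a lower log2 ratio. Region 1 had a log2 ratio of -1.31 (ratio 0.354, 0.0946 to 1.32) and region 3 of -1.16 (0.354, 0.0474 to 2.64). Relative to the table's median log2 ratio of -0.29, the 3 regions stood at -2.53, -1.02 and -0.88 in the order 2, 1, 3. At equal table totals region 3 had a log2 ratio of -0.93 and was within the fold. Airn had a log2 ratio of 0.07, Igf2r of -0.23, Grb10 region 1 of 0.60 and Grb10 region 2 of -0.78, all within the fold and with intervals that include a ratio of 1. The median log2 ratio of the 7 regions was -0.78 and that of the 4 regions outside SNORD116 was -0.08.

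Th1 was likewise set against naive. Grb10 region 1 was higher in Th1, with a log2 ratio of 2.57 (ratio 8.44, 0.944 to 399), and SNORD116 region 2 and Grb10 region 2 were lower, with -1.73 (0.281, 0.0531 to 0.963) and -1.04 (0.422, 0.00857 to 4.26). That is 1 of 7 regions higher and 2 lower, where the table had 19.4% higher and 29.0% lower. Grb10 region 2 rests on 1 Th1 read and Grb10 region 1 on 1 naive read. SNORD116 region 3, Airn and Igf2r had the same 3 and 3 reads and so the same log2 ratio of 0.67. SNORD116 region 1 had -0.75. The median log2 ratio was 0.67 over the 7 regions and -0.19 over the table.

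Treg against Th1 gave 3 of 7 regions lower and 0 higher, where the table had 21.0% lower and 17.0% higher. At equal table totals the split of 1701 higher and 2096 lower among all regions became 2276 and 1554. Grb10 region 1 had a log2 ratio of -1.98 (ratio 0.210, 0.0483 to 0.911), SNORD116 region 3 of -1.83 (0.210, 0.0281 to 1.57) and SNORD116 region 2 of -1.08 (0.419, 0.0896 to 2.59). The last was -0.84 at equal table totals and within the fold. Igf2r had -0.90, Airn -0.59, SNORD116 region 1 -0.56 and Grb10 region 2 0.26. The median log2 ratio was -0.90 over the 7 regions and -0.22 over the table.

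Of the 21 ratios, 3 had a counting interval that leaves out 1: SNORD116 region 2 in Treg against naive and in Th1 against naive, and Grb10 region 1 in Treg against Th1. Among all regions with reads this held for 4.45% lower and 0.220% higher in Treg against naive, 0.150% lower and 0.730% higher in Th1 against naive, and 2.83% lower and 0% higher in Treg against Th1. The comparisons share libraries, so a high naive count at SNORD116 region 2 enters both of its ratios. These intervals compare single libraries and carry no error between animals or captures.

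**Figure D4:**
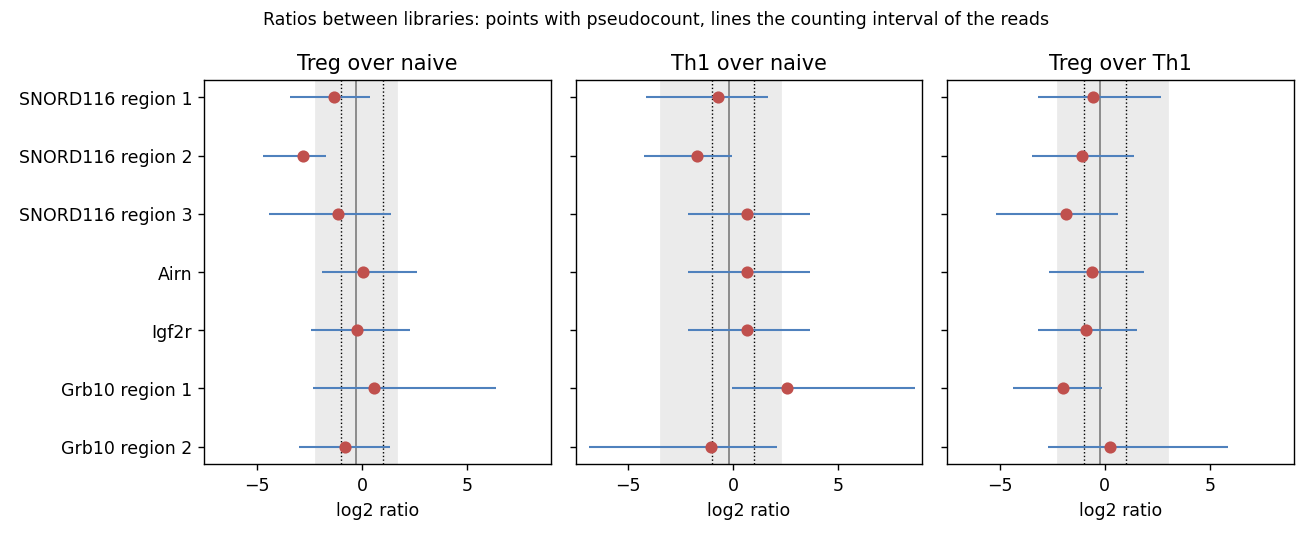
Log2 ratios of the 7 regions in Treg over naive, Th1 over naive and Treg over Th1: points are ratios with a pseudocount of 0.5, lines exact 95% counting intervals of the ratio without it, the shaded band the central 95% of all regions, the grey line their median and the dotted lines the fold rule. SNORD116 region 2 at -2.82 in Treg over naive and Grb10 region 1 at 2.57 in Th1 over naive lie outside the band.

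Regions of other genes were ranked by their likeness to the highest region of each gene, as the Euclidean distance of log2(value + 0.5) over the 3 libraries with reads. Nearest to SNORD116 region 2 were a region in an intron of the centrosome protein gene Sfi1 at a distance of 0.76, a promoter of Gm16478 at 0.81 and an intron of Ralgps1, an activator of Ral GTPases, at 1.08. They held 8, 7 and 9 Treg reads, 4, 4 and 3 Th1 reads and 12, 11 and 9 naive reads. No other region had the reads of SNORD116 region 2. By contrast 57 other regions had the same reads as Airn, 75 the same as Igf2r, 7 the same as Grb10 region 1 and 60 the same as Grb10 region 2. The first by position were regions of Prss57, Gm16271 and Ogdh for Airn, of Agap1, Myeov2 and Atg4b for Igf2r, and of Phactr1, Plcl2 and Dpp7 for Grb10 region 1. With so few reads such likeness picks out no gene in particular.

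A wider list of 81 imprinted mouse genes gave 19 genes with a region, or 23.5%, against 22.1% of 21900 protein-coding genes. The list also holds RNA genes, so the 2 shares are not of like sets. The 19 include Airn, Igf2r and Grb10, which had a region by selection and raise the share. Without these 3, it was 16 of 78 listed genes, and no excess is read from the list. The 16 genes besides these 3 had 34 regions: Trappc9 with 8, the potassium channel gene Kcnq1 with 6, the Polycomb-related gene Sfmbt2 with 5, Ano1 and Ppp1r9a with 2 each, and the others, among them Slc22a3, Sgce, Calcr, Atp10a and Ddc, with 1 each. H19, Igf2, Peg3, Meg3, Snrpn and Kcnq1ot1 had 0. Of the 34 regions, 2 were higher and 5 lower in Treg than in naive by the fold rule. The table had 8.33% higher and 22.2% lower. In Th1 against naive 4 were higher and 6 lower, where the table had 19.4% and 29.0%. In Treg against Th1 4 were higher and 7 lower, where the table had 17.0% and 21.0%. No direction particular to imprinted genes is read from these counts. The median log2 ratios of the 34 regions were -0.42, -0.19 and -0.38, where the table had -0.29, -0.19 and -0.22. Only 1 of the 34 was a promoter region, at Ano1 (chromosome 7, 151938101 to 151938246), with 6 Treg, 2 Th1 and 5 naive reads. Atp10a, which lies on the same chromosome as SNORD116 at 65978483 to 65978750, had 6 Treg, 3 Th1 and 3 naive reads in an intron. None of the 34 regions had more than 6 naive reads, as was so for all but 281 of the 10000 regions.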

How the data were processed

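Genomic DNA of 4 sorted CD4+ T cell populations, 1 library each, was enriched for methylated fragments by MethylCap; 250 ng of captured DNA entered each library and fragments of 250 to 350 bp were kept, per the labels' protocols. Bowtie 0.12.7, FastQC and build mm9 are named in the submitters' processing notes, without their roles. The deposited table holds a signal per region and library; from the values, 100% of Treg, Th1 and naive signals are whole multiples of 1 constant per library (relative tolerance 1e-06). How the authors set these constants, chose the 10000 regions and treated reads with several matches is not stated. The Th17 column is 0 throughout, so its depth is unknown.

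Reads were recovered by division. Intervals are exact Poisson (values) and Clopper-Pearson (ratios), at 95%. Each population has 1 library, so populations are compared by description; a binomial test of reads, run only as an alternative, compares 2 libraries and not the populations. Genes were named by a rule that takes every region of the 4 genes, the 3 nearest regions of other genes, the listed imprinted genes and the highest small nucleolar RNA labels. An item that the rule names is not reported here. The members and lists were chosen with earlier results of these data known. Of the 81 listed genes 79 are in the RefSeq name table (GRCm38.p6), used for names; promoter windows from the same build matched 3 of the 4 genes. All columns of per-sample values were matched by name. Alternatives were another pseudocount, 2 scalings, 2 fold rules, a read filter and an exact binomial test of reads. Functions were tested on simulated data. Python 3.11.15, scipy 1.17.1 and pandas 2.3.3 were used.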

Additional observations from a re-analysis of the deposited data

How the results depend on the processing

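No paired analysis was possible because each population has 1 library. Treg against naive had 3 of the 7 regions past the fold, 1 with a pseudocount of 5, 1 at a log2 ratio of 1.5 and 5 at 1.5-fold. Th1 against naive had 3, and 7 at 1.5-fold. Treg against Th1 had 3, 0 with a pseudocount of 5 and 5 at 1.5-fold. Over the table the counts, in the order Treg against naive, Th1 against naive and Treg against Th1, were 3050, 4834 and 3797. They were 79, 412 and 189 with a pseudocount of 5, and 1616, 2497 and 2095 at a log2 ratio of 1.5. At 1.5-fold Treg against naive gave 5525 and Treg against Th1 gave 6144. Scaling to equal table totals or by median of ratios kept the counts within 1.5 times. So did a filter at 10 reads, which was run on the counts over the table only and not on those of the 7 regions. The 2 scalings nevertheless brought the table's median log2 ratio of Treg over naive, -0.29 as deposited, to 0.04 and 0.03. By median of ratios Treg against Th1 split into 2274 higher and 1222 lower. The exact 2-sided binomial test of reads, with Benjamini-Hochberg adjustment over the table, compares 2 libraries, not populations, and called 1, 0 and 0 regions. The 1 is SNORD116 region 2, which was chosen on these same signals, so nothing is read from that call. At equal table totals, a setting chosen after seeing the data, the test called 0, 0 and 0, with 476, 199 and 284 regions under an unadjusted 0.05, against 840, 153 and 501 as deposited. Of 63 member log2 ratios recomputed with another pseudocount or scaling, 62 stayed within their counting interval. Sign was checked only for ratios past the fold, and 0 of those changed it. SNORD116 region 2 in Treg over naive was -1.69 with a pseudocount of 5. These intervals are wide and a larger pseudocount always shrinks a log2 ratio, so the counts say little about robustness. Depth limits every value: the 7 regions hold 42 Treg, 20 Th1 and 38 naive reads in all.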
